A study of Mus musculus with 12 samples.

Results

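Polycomb repressive complex 2 (PRC2) and the demethylases that oppose it were followed through 9 genes of mouse fat-tissue stromal cells: Ezh2, Ezh1, Eed, Suz12, Jarid2, Mtf2, Phf19, Kdm6a and Kdm6b. The genes were taken by symbol from the messenger RNA tables. All 9 were found, among 19262 genes listed for the comparison of knockout with wild type and 16785 listed for the comparison of doxycycline with no doxycycline. All 9 passed the filter on low values in both tables.

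The cells were primary cultures of the stromal vascular fraction, the non-adipocyte cells of white adipose tissue, from C57BL/6 mice aged 6 weeks, and the wild-type and knockout cultures were taken at confluency. WT cells carried no engineered allele per the labels, and TKO cells were homozygous for deletions of miR-26b (miR-26b-/-), miR-26a-1 (miR-26a-1-/-) and miR-26a-2 (miR-26a-2-/-), which are all the genes for the microRNA miR-26. CTL and Dox cells both carried M2rtTA, the activator that responds to doxycycline, and an eGFP.miR-26a transgene. Dox cells received doxycycline at 1 mg/ml for 4 days and CTL cells none. There were 3 libraries in each of the 4 groups. No group received doxycycline without the transgenes, so the drug and the microRNA it switches on cannot be told apart here. The promoter of the transgene is not given in the sources used here. Whether the 3 replicates of a group were separate animals or cultures is not stated in the labels, so every p-value measures only the spread between these libraries, which may be technical. In such bulk samples, fewer cells of a type and less RNA per cell cannot be told apart.

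PRC2 places methyl groups on lysine 27 of histone H3 (H3K27), a mark of silenced developmental genes. Its catalytic subunit is EZH2 or EZH1, and it needs EED, which reads the mark, and SUZ12, which holds the complex together. JARID2, MTF2 and PHF19 are accessory subunits that guide it to chromatin. UTX (gene Kdm6a) and JMJD3 (gene Kdm6b) remove the methyl groups again. EZH2 is a long-known target of miR-26 in several cell types, is abundant in dividing cells, and in fat-cell progenitors is known for silencing Wnt genes that block adipogenesis.

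The sequences that link these genes to the altered microRNA are the miR-26 seed and its matches in the 3' untranslated regions (3' UTRs). The mature microRNAs follow, from RefSeq (GRCm38.p6), with the seed, bases 2 to 8, in capitals.
mmu-miR-26a-5p: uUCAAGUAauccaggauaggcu
mmu-miR-26b-5p: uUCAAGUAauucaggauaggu
Both had the same seed, and Mir26a-1 on chromosome 9 and Mir26a-2 on chromosome 10 gave the same mature miR-26a-5p, so the 3 deleted genes shared 1 seed. A match was searched on the sense strand of each annotated 3' UTR (GENCODE vM21, GRCm38) as the 8mer TACTTGAA, the 7mers TACTTGA and ACTTGAA, or the 6mer ACTTGA. The shorter matches lie within the 8mer and were counted only where no longer one covered them. Ezh2, Suz12, Jarid2 and Kdm6a held a match of at least 7 bases. Their matches are shown in capitals within 30 bases of the sense strand, 5′ to 3′.
Ezh2 8mer: caaatttgaataaagaaTACTTGAActtgt
Suz12 8mer: ttcccagtttaggttttTACTTGAAcatgt
Suz12 7mer: atccatacagataagctgACTTGAAttgtt
Jarid2 first 7mer: acacacagaaaaaagaaaACTTGAAatggc
Jarid2 second 7mer: cctgtaaattgttttaaaTACTTGAgcctt
Kdm6a 7mer: acatcataaagactactgACTTGAAgacaa
The Ezh2 match lies at chr6:47530286-47530293 on the - strand, in exon 20, the last exon, 248 bases into a 3' UTR of 402 bases, and all 4 coding transcripts with an annotated 3' UTR contain it. The Suz12 8mer lies at chr11:80032871-80032878 and its 7mer at chr11:80033090-80033096, both on the + strand in exon 16. The Jarid2 matches lie at chr13:44920426-44920432 and chr13:44921039-44921045 in exon 18, + strand, and the Kdm6a match at chrX:18278939-18278945 in exon 29, + strand. Ezh1 and Mtf2 held 1 6mer each. No match of 6 or more bases was found in the annotated 3' UTRs of Eed, Phf19 and Kdm6b.

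**Figure D1:**
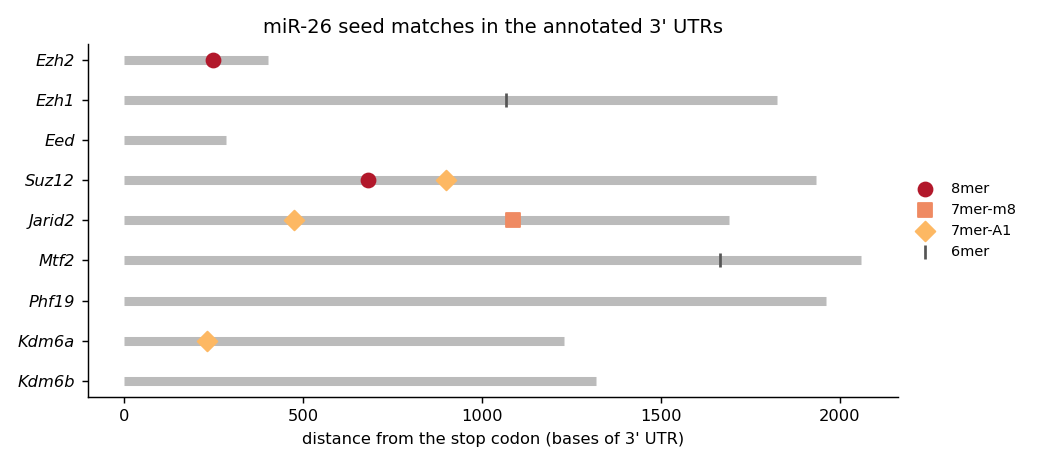
Matches to the miR-26 seed (symbols, by kind) along the 3' UTR of 1 chosen transcript of each gene (grey bars), with distance from the stop codon in bases on the horizontal axis. Ezh2 has its 8mer at 248 bases of a 402-base 3' UTR, Suz12 has an 8mer and a 7mer, and the bars of Eed, Phf19 and Kdm6b are empty.

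Such matches are common. Of 11829 genes tested in TKO against WT that have an annotated 3' UTR, 5.1% held an 8mer, 21.8% a 7mer or 8mer and 36.9% a match of at least 6 bases. The 602 genes with an 8mer divided in TKO into 159 (26.4%) that passed as lower and 101 (16.8%) as higher, beside 22.7% lower and 23.6% higher over all genes with a 3' UTR. Their median log2 fold change was -0.08, against 0.00 over those genes. Their 3' UTRs were also longer, with a median of 2701 bases against 1199. A match is a description of the letters, not a measured binding site.

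The deposited value is a signal, the read count of a gene scaled by 1 factor per library. The libraries held 19301969 to 83461531 recovered reads, with TKO and WT deeper than CTL and Dox. The 9 genes had 308 to 7649 reads per library in WT and TKO and 95 to 1722 in CTL and Dox, in each case with Phf19 lowest, so Phf19 was measured least precisely. The summed signal of 9 stromal markers, among them Pdgfra and the collagen genes Col1a1 and Col1a2, was 23284 to 38139 over the libraries. This sum does not give the level of each marker. Members of that list differed in TKO against WT: Thy1 (-0.86 ± 0.15, limma adjusted p = 0.00426) and Pdgfrb (-0.47 ± 0.12, adjusted p = 0.0168) were lower, and the other 7 did not pass. Of 6 adipocyte markers tested, Cebpa was higher (1.63 ± 0.28, adjusted p = 0.00419), and the other 5 did not pass, among them Fabp4 (1.12 ± 0.41, adjusted p = 0.0627). The summed adipocyte markers were 1130 to 1590.2 in WT and 920 to 1842 in TKO. The part of these markers in the TKO results was not tested. The summed signal of 10 macrophage markers was 301 in TKO replicate 2 against 40.4 to 69.9 in WT and 54.1 and 59.6 in the other TKO libraries. Xist, the RNA of the inactive X chromosome, was high in all 12 libraries (640.0 to 1429), and the Y-linked paralog of Kdm6a, Uty, was in neither table.

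Per kilobase of transcript, Eed and Suz12 were the most abundant of the 9 genes in each of the 4 groups. In WT the order was Eed (20.01 ± 0.66 signal per kb, SD, n = 3), Suz12 (17.6 ± 0.97), Ezh2 (14.9 ± 1.09), Kdm6b (10.4 ± 1.18), Kdm6a (9.75 ± 0.29), Ezh1 (6.64 ± 0.32), Mtf2 (6.61 ± 0.28), Jarid2 (2.98 ± 0.06) and Phf19 (1.67 ± 0.28). The neighbours Kdm6b and Kdm6a, and Ezh1 and Mtf2, overlapped between libraries, and the other neighbours did not. In TKO, Kdm6b took the seventh place (6.02 ± 0.22 per kb) and overlapped Ezh1 (6.05 ± 0.21) above it. In CTL and Dox, whose levels come from a separately normalized table, Eed was again first (14.7 ± 0.28 and 17.3 ± 1.75 per kb) and Jarid2 and Phf19 last. Ezh2 in Dox (9.51 ± 0.56 per kb) overlapped Kdm6b (9.58 ± 1.32).

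**Figure D2:**
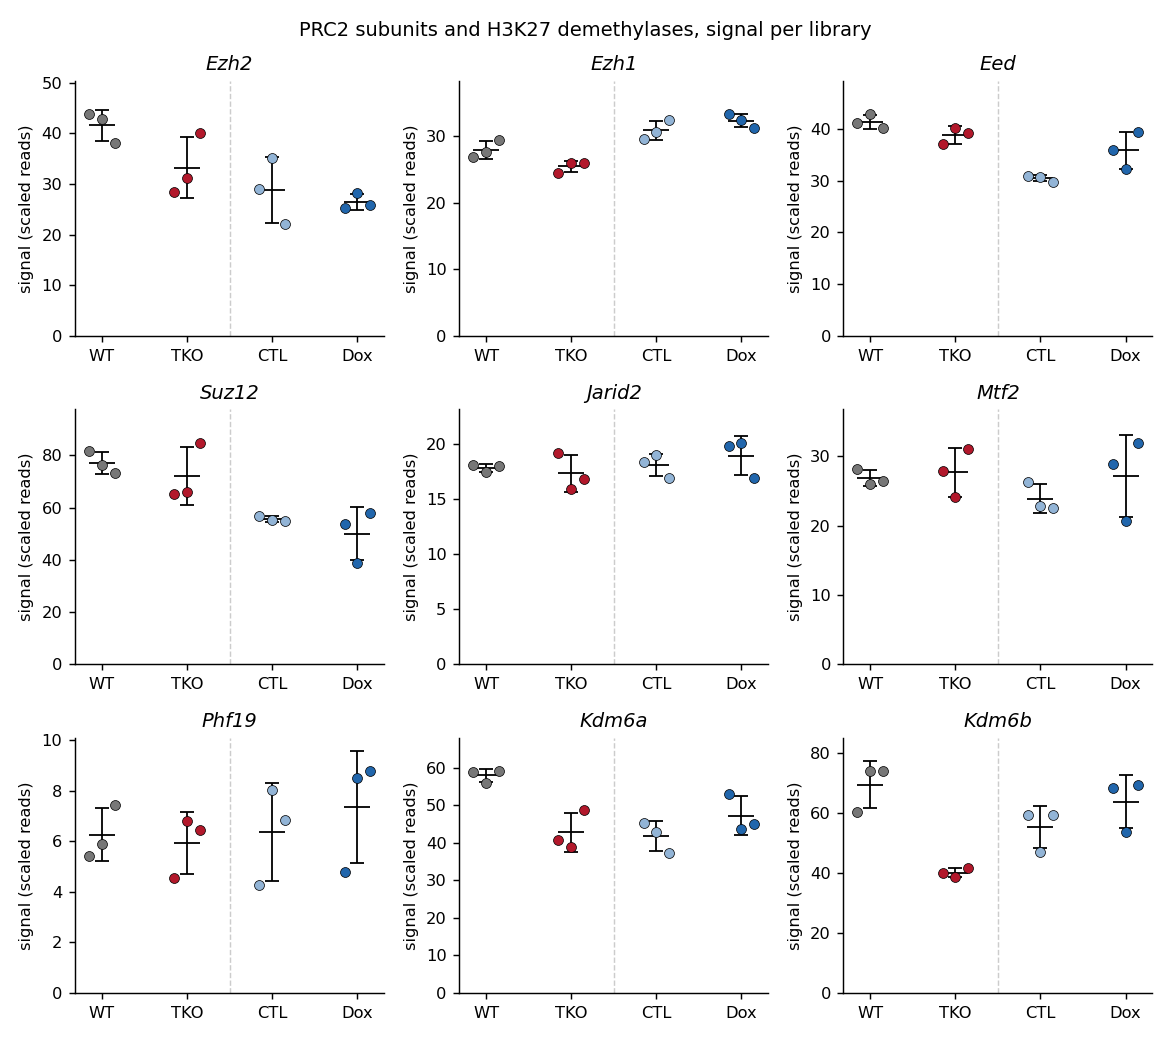
Signal (scaled reads) of the 9 genes in each library (points), with the group mean (dash) and SD (bars) of 3 libraries, and a dashed line between the separately normalized tables. Kdm6a and Kdm6b in TKO lie below every WT library, and Ezh2 in TKO spreads from 28.5 to 40.1 across the lower end of WT.

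The first comparison, TKO against WT, asks which messenger RNAs differ when miR-26 is absent. Both H3K27 demethylases were lower in TKO, and none of the 7 PRC2 subunits passed the test in either direction. Of the 9 genes, 2 passed (limma adjusted p under 0.05), both lower. Over all 12649 genes tested, 45.8% passed, 23.2% higher and 22.7% lower, so 2 of 9 is no larger a share than among genes in general. The median log2 fold change of the 9 genes was -0.10, against 0.00 for all genes, and 8 of 9 values were below 0. Scaled by library size instead, the median of all genes moved up to 0.11, the share of higher calls rose from 50.6% to 66.7%, and 5 of the 9 values were above 0, while Kdm6a and Kdm6b still passed as lower, beside 15.1% of all genes.

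Kdm6b, which encodes the inducible demethylase JMJD3 (ENSMUSG00000018476.7, chromosome 11, 69398508 to 69413675, - strand, GRCm38), had the largest difference of the 9. Its signal was 60.3, 73.9 and 73.9 in WT against 39.9, 38.7 and 41.6 in TKO. All TKO libraries were below all WT libraries, with a gap wider than the spread within either group. The log2 fold change of signal + 1 was -0.77 ± 0.09 (SE, n = 3 per group, limma adjusted p = 0.00124). It passed under all 16 alternatives, at -0.87 to -0.65 (adjusted p at most 0.00927). Its 3' UTR of 1318 bases held no seed match, and 1.2% of its 75-base stretches also lie in the transcripts of the antisense gene Kdm6bos.

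Kdm6a, which encodes UTX, a demethylase that also serves in an H3K4 methyltransferase complex (ENSMUSG00000037369.17, chromosome X, 18162575 to 18279936, + strand), was lower too. Its signal was 58.7, 55.9 and 59.0 in WT against 40.7, 38.8 and 48.7 in TKO. The groups did not overlap, and TKO replicate 3 was nearest to WT. The log2 fold change was -0.44 ± 0.09 (limma adjusted p = 0.00976). In the authors' deposited table both demethylases passed, with false discovery rates of 6.99e-08 for Kdm6b and 0.0114 for Kdm6a. With a trend of fold change with transcript length and GC content removed, the value was -0.19 and no longer passed (adjusted p = 0.0755), while Kdm6b stayed at -0.78. Among other X-linked genes known to escape X inactivation, as Kdm6a does, Eif2s3x was lower (-0.41 ± 0.12, adjusted p = 0.0318), Ddx3x was at -0.27 ± 0.12 with no overlap (adjusted p = 0.117) and Kdm5c was at 0.06 ± 0.06 (adjusted p = 0.42). Xist itself was 1429, 1332 and 1298 in WT against 1031, 640.0 and 1166 in TKO (-0.56 ± 0.22, adjusted p = 0.0744), and its part in the Kdm6a difference was not tested.

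Ezh2, the catalytic subunit of proliferating cells (ENSMUSG00000029687.16, chromosome 6, 47530139 to 47595341, - strand), read 43.8, 42.8 and 38.1 in WT. In TKO it read 28.5, 31.2 and 40.1. TKO replicates 1 and 2 were below every WT library, and TKO replicate 3 was inside the WT range. The log2 fold change was -0.33 ± 0.13 and did not pass (limma adjusted p = 0.0842). In the authors' deposited table the log2 fold change was -0.32 with a false discovery rate of 0.277. Without TKO replicate 3 the value was -0.46 (adjusted p = 0.0116), so the call depended on that library. The highest TKO library was still below WT replicates 1 and 2.

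Ezh1, the catalytic subunit that prevails in resting cells (ENSMUSG00000006920.14, chromosome 11, 101191115 to 101226463, - strand), read 26.8, 27.6 and 29.4 in WT against 24.4, 25.98 and 25.9 in TKO. The groups did not overlap, yet the difference was small (-0.13 ± 0.07, limma adjusted p = 0.159). In all, 3 of the 9 genes (Ezh1, Kdm6a and Kdm6b) were lower in TKO with no overlap, beside 29.4% of all genes. The ratio of Ezh2 signal to Ezh1 signal, a description within each library, was 1.63, 1.55 and 1.30 in WT against 1.17, 1.201 and 1.55 in TKO. TKO replicate 3 was again the library inside the WT range.

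The remaining core subunits showed no difference beyond the spread of the libraries. They are Eed (chromosome 7, 89954654 to 89980983, - strand) and Suz12 (chromosome 11, 79993106 to 80034123, + strand). Eed read 41.1, 42.8 and 40.1 in WT against 37.0, 40.2 and 39.3 in TKO (-0.09 ± 0.06, limma adjusted p = 0.289). Suz12 read 81.5, 76.4 and 73.0 in WT against 65.3, 66.1 and 84.8 in TKO (-0.10 ± 0.11, adjusted p = 0.485). The Suz12 libraries split as those of Ezh2 did: TKO replicates 1 and 2 were below WT, and replicate 3 was above every WT library. Of the 75-base stretches of Eed, 9.4% are shared with the opposite-strand gene E230029C05Rik, and since the strand setting of the counting is not given, those reads cannot be assigned.

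The accessory subunits overlapped between the groups. They are Jarid2 (chromosome 13, 44729474 to 44921643, + strand), Mtf2 (chromosome 5, 108065674 to 108109004, + strand) and Phf19 (chromosome 2, 34893757 to 34914026, - strand). Jarid2 read 18.2, 17.5 and 18.0 in WT against 19.3, 15.98 and 16.9 in TKO (-0.04 ± 0.09, limma adjusted p = 0.70). Mtf2, which binds unmethylated CpG-rich DNA, read 28.1, 25.997 and 26.4 in WT against 27.9, 24.1 and 31.1 in TKO (0.04 ± 0.10, adjusted p = 0.791). Mtf2 passed as higher with the length and GC trend removed (0.27, adjusted p = 0.0148), and 8.1% of its 75-base stretches are shared with its neighbour Tmed5. Phf19, which reads methylated lysine 36 of histone H3, read 5.44, 5.90 and 7.45 in WT against 4.54, 6.82 and 6.44 in TKO (-0.07 ± 0.17, adjusted p = 0.747). Its SE was the widest of the 9 genes. With 3 libraries a group, a missed threshold does not show that these levels were equal.

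**Figure D3:**
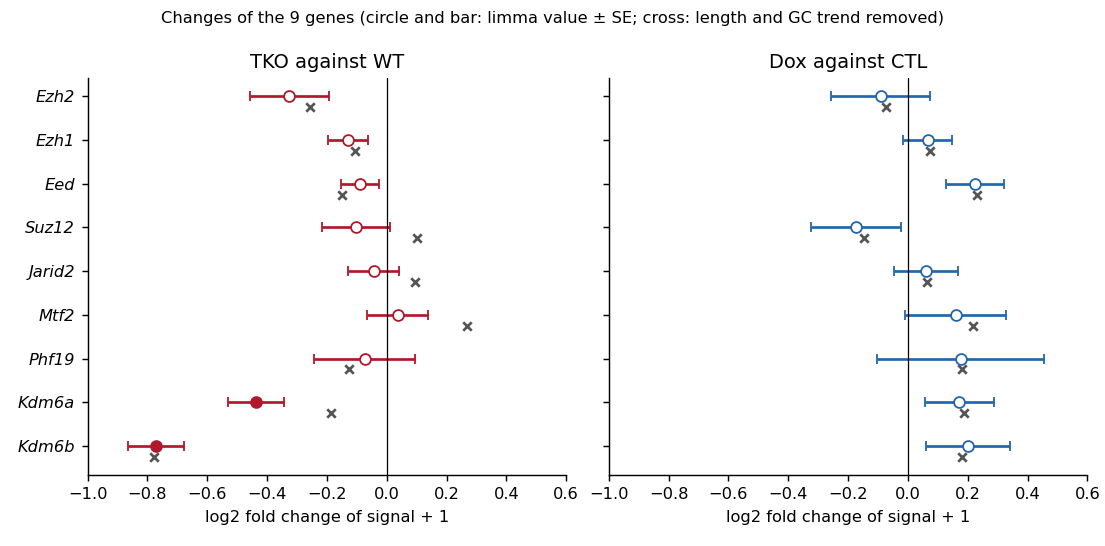
Log2 fold changes of signal + 1 (horizontal axis) of the 9 genes with limma SE (bars, 3 libraries per group), filled where the adjusted p was under 0.05, and crosses for the values with the length and GC trend removed. Kdm6b stays near -0.77 under both, Kdm6a moves from -0.44 to -0.19, and no gene passes in Dox against CTL.

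The second comparison, Dox against CTL, asks which messenger RNAs differ when miR-26a is switched on. None of the 9 genes passed, and neither did any other gene: limma called 0 of 12634 genes (0%), with 748 (5.92%) under an unadjusted p of 0.05. edgeR called 0 and DESeq2 99 (0.784%) on the recovered reads, and none of the 9 genes was among them. In the unpaired limma fit none of the 9 was under an unadjusted p of 0.05 either. The replicate numbers paired the CTL and Dox libraries, and the paired fit called 265 genes (2.1%), again with none of the 9. In that paired limma fit the unadjusted p was 0.0227 for Kdm6b and 0.0363 for Eed (adjusted p = 0.206 and 0.255). Kdm6a came next at an unadjusted p of 0.0692. Of the 9 values 7 were above 0, with a median log2 fold change of 0.16 against 0.01 for all genes. The 2 values below 0 belonged to Ezh2 and Suz12, the 2 genes of the 9 with an 8mer. Jarid2 (0.06) and Kdm6a (0.17), which held 7mers, were above 0, and a link between match and sign was not tested.

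Ezh2 read 29.1, 35.1 and 22.1 in CTL against 25.3, 28.3 and 25.9 in Dox. The Dox libraries lay inside the CTL range, which was set by CTL replicates 2 and 3. The log2 fold change was -0.09 ± 0.17 (limma adjusted p = 0.999). It turned to 0.06 without CTL replicate 2. Suz12 read 56.9, 55.3 and 54.8 in CTL against 53.6, 38.6 and 57.8 in Dox (-0.17 ± 0.15, adjusted p = 0.966). The low value was that of Dox replicate 2, and without it the Suz12 value was -0.001. Over the 600 tested genes with an 8mer the median in this comparison was -0.12, against 0.01 over all tested genes with a 3' UTR. Limma called 0 of these 600 genes. Their 3' UTRs were again longer, with a median of 2707.5 bases against 1192.

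Eed was the only 1 of the 9 genes whose CTL and Dox libraries did not overlap, and it was higher in Dox, beside 6.5% of all genes. It read 30.8, 30.7 and 29.8 in CTL against 35.8, 32.2 and 39.4 in Dox (0.22 ± 0.10, limma adjusted p = 0.841). The value passed only in a paired fit without replicate 2 of both groups (0.30, adjusted p = 0.0321), as did Mtf2 (0.31, adjusted p = 0.048). Mtf2 read 26.3, 22.8 and 22.5 in CTL against 28.9, 20.6 and 32.0 in Dox (0.16 ± 0.17, adjusted p = 0.981 in the unpaired fit). Ezh1 read 29.5, 30.6 and 32.4 in CTL against 33.3, 32.4 and 31.3 in Dox (0.07 ± 0.08, adjusted p = 0.986). The ratio of Ezh2 to Ezh1 signal was 0.98, 1.148 and 0.68 in CTL against 0.76, 0.87 and 0.83 in Dox, with Dox again inside the CTL range.

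The demethylases read somewhat higher in Dox, with overlap between the groups. Kdm6b read 59.4, 47.1 and 59.3 in CTL against 68.3, 53.7 and 69.3 in Dox (0.20 ± 0.14, limma adjusted p = 0.933). Each Dox library was above the CTL library of the same number, and the paired fit gave an adjusted p of 0.206. Kdm6a read 45.2, 42.8 and 37.3 in CTL against 53.1, 43.6 and 44.96 in Dox (0.17 ± 0.11, adjusted p = 0.925). It too was higher in Dox in all 3 pairs (adjusted p = 0.334 in the paired fit). The signs were thus opposite to those in TKO for both demethylases, but the Dox values did not pass and the difference between the comparisons was not tested. Jarid2 read 18.4, 19.0 and 17.0 in CTL against 19.8, 20.1 and 16.9 in Dox (0.06 ± 0.11). Phf19 read 4.26, 8.04 and 6.84 in CTL against 4.78, 8.51 and 8.77 in Dox (0.18 ± 0.28). Phf19 overlapped between the groups but was higher in Dox in all 3 pairs, with an adjusted p of 0.471 and an SE of 0.11 in the paired fit.

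The pattern of Ezh2 over the 12 libraries was compared with that of 9943 other genes, as the Pearson correlation of log2(signal + 1) centred within each table. The 5 genes most like it were Brca1 (r = 0.978), which acts in repair of DNA breaks, Mastl (0.960), a mitotic kinase, Ska2 (0.957), a protein of the kinetochore, Cip2a (0.956), an inhibitor of the phosphatase PP2A, and Plk4 (0.948), the kinase of centriole duplication. The libraries of a table share their scaling and group, so these values are a description. None of the other 8 members came near: Kdm6a was at r = 0.616, Suz12 at 0.348, Kdm6b at 0.273 and Mtf2 at -0.02. Kdm6a and Kdm6b were at 0.793 with each other.

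**Figure D4:**
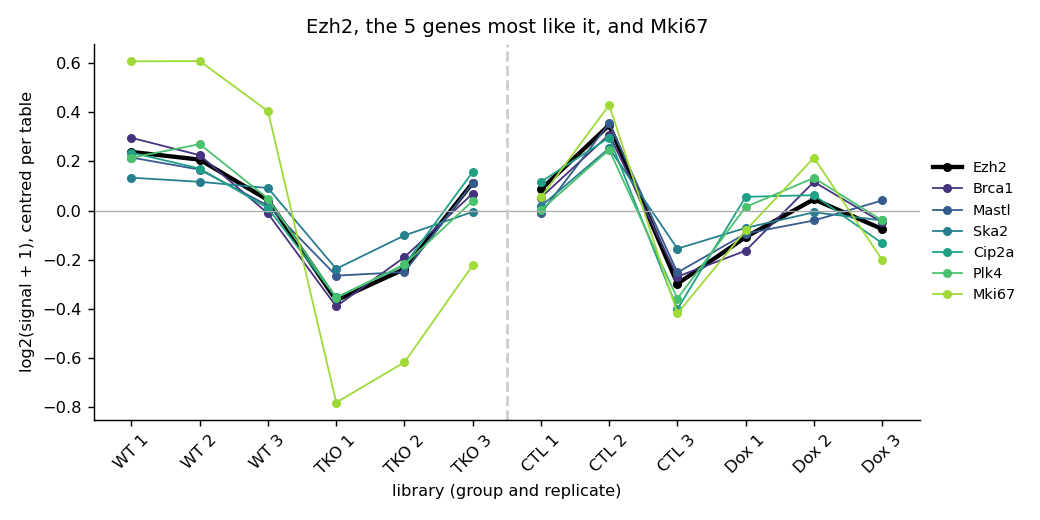
Log2(signal + 1) centred within each table (vertical axis) of Ezh2 (thick black), the 5 genes most like it and Mki67, in each of 12 libraries (dashed line between tables). All 7 are lowest in TKO replicate 1 in the first table and in CTL replicate 3 in the second, with Ezh2 at -0.36 in TKO replicate 1 and 0.11 in TKO replicate 3.

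Mki67 and the summed mitosis genes followed the library order of Ezh2 in TKO and CTL but not in Dox. Mki67, the proliferation antigen, read 439.5, 439.9 and 382 in WT against 167, 188 and 247 in TKO (-1.08 ± 0.15, limma adjusted p = 0.00186). Its lowest TKO value was in replicate 1 and its highest in replicate 3, the same order as Ezh2, at r = 0.884 over 12 libraries. The replication gene Mcm2 was less like Ezh2, at r = 0.346. Mki67 is also among the 12 mitosis genes that were summed. It made up 439.5 of their 1162 in WT replicate 1, so Mki67 and the sum are not separate measures. The summed signal of the 12 genes was 1053 to 1162 in WT, and 731, 869 and 1025 in TKO. In CTL it was 831, 1078 and 661, the order of Ezh2 there. In Dox it was 791, 1005 and 730, where Ezh2 was lowest in replicate 1 and the mitosis genes in replicate 3. The genes of that list did not move one way, since Mki67, Tpx2 and Foxm1 fell in TKO and Cdc20, Cdk1 and Ccnb1 rose, with 6 not passing. Of 21 replication genes driven by E2F factors, 3 fell (Ccne2, Rbl1 and Cdc6), 0 rose and 18 did not pass, beside 45.8% of all genes passing and 22.7% passing as lower. The summed signal of these 21 genes was 910, 1010 and 1149 in TKO and 988, 1128 and 871 in CTL. In Dox it was 986, 1234 and 1026, and in all 3 of these groups the order was that of Ezh2. In WT it was 1053, 1055 and 1006, where Ezh2 was highest in replicate 1. The part of proliferation in the Ezh2 values was not tested.

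Lists of genes around PRC2 were described in TKO against WT by their counts and medians. Of 7 other PRC2 subunits, 1 rose and 0 fell, with a median of 0.13. Over all genes 45.8% passed, 23.2% higher and 22.7% lower, so a smaller share of this list passed. That gene was Rbbp4, a histone-binding subunit that PRC2 shares with other complexes, at 141, 141 and 138 in WT against 200.4, 221 and 226 in TKO (0.62 ± 0.07, limma adjusted p = 7.96e-04). Of its 75-base stretches 31.4% also occur in Gm26722 or Sync, so its reads could be split. Aebp2, a DNA-binding accessory subunit, was at -0.22 ± 0.08 (adjusted p = 0.0514), Phf1 at 0.34 ± 0.13 (0.0686) and Epop at 0.31 ± 0.12 (0.0813). Without TKO replicate 3, 3 genes of this list passed, beside 5614 of all 12649 genes.

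Of 20 subunits of PRC1, the complex that places ubiquitin on histone H2A and compacts chromatin, 8 fell, 2 rose and 10 did not pass, with a median of -0.11. Over all genes 45.8% passed, 23.2% higher and 22.7% lower. The share of the list that passed was thus near that of all genes, with a larger share lower and a smaller share higher. Rybp, a subunit of the variant complexes, read 54.5, 48.8 and 52.3 in WT against 24.4, 20.9 and 23.6 in TKO (-1.14 ± 0.08, limma adjusted p = 2.81e-04). Rnf2, which encodes the main ubiquitin ligase RING1B, read 105, 99.2 and 101 in WT against 69.6, 63.9 and 71.3 in TKO (-0.57 ± 0.06, adjusted p = 0.00103). For both genes the groups were far apart. Scmh1 (-0.52 ± 0.06) and Phc1 (-0.57 ± 0.07) fell as well, as did Bmi1, Pcgf2, Pcgf3 and Phc3, while Pcgf6 and Yaf2 rose. Phc3 did not pass with the length and GC trend removed (-0.14, adjusted p = 0.188), and Pcgf3 moved from -0.50 to -0.22.

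Kdm6a works beside the H3K4 methyltransferases KMT2C and KMT2D. A list of 12 genes of H3K4 methyltransferase complexes was not limited to these 2, since it also held Kmt2a, Kmt2b and Men1. Of the 12 genes, 11 were tested. All 11 passed, beside 45.8% of all genes. Wdr5 rose and 10 fell, beside 22.7% of all genes, with a median of -0.37. Ncoa6, a coactivator subunit of the KMT2C and KMT2D complexes, read 167, 181 and 164 in WT against 67.2, 59.7 and 74.7 in TKO (-1.34 ± 0.09, limma adjusted p = 2.71e-04). Paxip1 (-0.54 ± 0.09) and Rbbp5 (-0.37 ± 0.07) fell, and Wdr5, a scaffold of all these complexes, was at 0.46 ± 0.08 (adjusted p = 0.00381). The enzymes Kmt2d (-0.48) and Kmt2c (-0.63) passed with the length and GC trend removed as well, at -0.28 and -0.31. The count varied with the scaling and with single libraries: 7 passed with library-size scaling, 7 without WT replicate 1, 5 without WT replicate 2 and 7 without WT replicate 3. Over all 12649 genes the same 4 fits called 5737, 4253, 3938 and 4663 genes, against 5796 in the main fit. Calls thus also fell among genes in general when a WT library was left out.

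A further list held H3K27 acetyltransferases and H3K36 methyltransferases, which place marks that compete with PRC2, and genes of the BAP1 complex. Of its 8 tested genes, 6 fell, 0 rose and 2 did not pass, with a median of -0.61. Over all genes 45.8% passed, and 22.7% passed as lower. The acetyltransferase Crebbp read 74.1, 78.9 and 75.7 in WT against 40.3, 40.2 and 44.9 in TKO (-0.85 ± 0.07, limma adjusted p = 3.41e-04). Its relative Ep300 read 148, 151 and 141 in WT against 93.8, 78.8 and 103 in TKO (-0.67 ± 0.10, adjusted p = 0.00276). Nsd3 (-0.64 ± 0.09) and Asxl2 (-0.63 ± 0.11) also fell. With the length and GC trend removed the median of this list was -0.29, Nsd3 was at -0.36, Asxl2 at -0.26, and 5 passed.

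The last list held 51 genes that PRC2 classically silences, mostly Hox genes, the regulators of position along the body axis. Of these, 37 were tested, and 11 fell, 0 rose and 26 did not pass, with a median of -0.34. Over all genes 45.8% passed, 23.2% higher and 22.7% lower. A smaller share of the list passed, with 0 higher, and the share of lower genes was somewhat above that of all genes. Hoxc6 read 54.8, 59.7 and 47.1 in WT against 35.99, 26.9 and 33.0 in TKO (-0.74 ± 0.13, limma adjusted p = 0.0048). Hoxa7 (-0.65 ± 0.08), Hoxc4 (-0.75 ± 0.10) and Gata6 (-0.69 ± 0.13), a regulator of endoderm and heart, fell as well. In all 4 of these genes the TKO libraries were below the WT libraries. Hox genes overlap antisense transcripts, and with the strand setting not given, reads of both strands cannot be told apart. Cdkn2a, the senescence gene that PRC2 holds down in growing cells, read 7.34, 6.58 and 6.10 in WT against 20.7, 7.69 and 9.49 in TKO (0.71 ± 0.32, limma adjusted p = 0.115). The high value was that of TKO replicate 1, and a relation to Ezh2 was not tested. With the trend removed the list had 15 lower genes and a median of -0.56. That fit called 5778 of 12649 genes, 48.7% of them higher, so the lower share of the list was further above that of all genes.

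**Figure D5:**
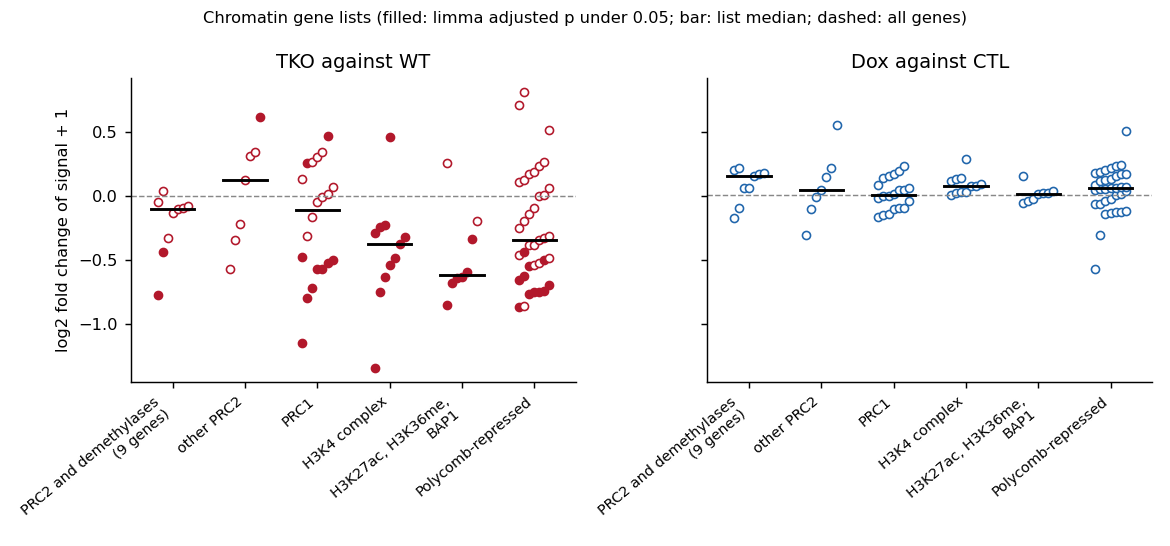
Log2 fold changes of signal + 1 (vertical axis) of the 9 genes and of 5 related lists, 1 point per gene tested, filled where the limma adjusted p was under 0.05, with list medians (bars) and the median of all genes (dashed). In TKO against WT the H3K4 list (median -0.37) and the acetyltransferase list (-0.61) lie mostly below 0, and in Dox against CTL no point is filled.

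In Dox against CTL limma called 0 genes in each of these 5 lists. In all, 6 of their genes were under an unadjusted limma p of 0.05, beside 748 (5.92%) of all 12634 genes. DESeq2 called 1, Hoxd8, beside 0.784% of all genes. The list medians ran from 0.01 (PRC1) to 0.08 (H3K4 complexes). Hoxd8 read 17.8, 16.8 and 17.8 in CTL against 11.9, 9.92 and 12.7 in Dox (-0.57 ± 0.12, limma adjusted p = 0.432), and passed in the paired fit (adjusted p = 0.031). All Dox libraries were below all CTL libraries for this gene. Rybp, Ncoa6 and Crebbp, which were lower in TKO, overlapped between CTL and Dox.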

How the data were processed

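Messenger RNA of 12 libraries was sequenced as 75-base single reads from a stranded kit, per the labels. Per the submitters' processing notes, TopHat2 2.0.12, featureCounts 1.4.6, edgeR 3.8.6 and StringTie 1.2.2 were used with GRCm38 (mm10). The signal deposited by the authors is a read count scaled per library. The log2 fold changes, the p-values with their false discovery rates and a likelihood ratio score in the deposited tables are the authors' own, and the score was not used. No listed gene had a value of 0, and the 2 tables were normalized apart, so no fit spanned both. Dividing each signal by the worth of 1 read in its library gave whole numbers (100% of values, within 0.1 reads), the recovered reads.

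The planned test depended on the unit. Since the files held scaled values, limma 3.58.1 (trend, R 4.3.3) was run on log2(signal + 1) for genes that reached a signal of 1 in 3 or more of the 6 libraries, with Benjamini-Hochberg adjustment over all genes tested and a threshold of 0.05. Fold changes on this scale understate those of low genes. edgeR 4.0.16 and DESeq2 1.42.0 on recovered reads, other scalings, filters and pseudocounts, removal of a cubic trend with transcript length and GC content, a replicate block and leaving out each library were alternatives. Same-numbered CTL and Dox libraries deviated together (correlations across genes 0.863, 0.584 and 0.736), so these numbers pair the libraries. Those of WT and TKO did not (0.449, -0.135 and -0.293). The columns of Dox replicates 2 and 3 share 1 sequencing-sample suffix, and their identity rests on the replicate number.

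Of the gene identifiers 99.8% and 99.9% matched GENCODE vM21. Levels between genes were compared per kilobase of 1 transcript per gene. The 9 genes and the lists were chosen with earlier results of these data known. The genes named were the 9, up to 4 genes of smallest p in each list, sex-linked genes, and the 5 genes most like Ezh2 with a mean signal of at least 5 in both tables. Kmt2c, Kmt2d, Cdkn2a, Bmi1, Pcgf2, Pcgf3, Phc3, Pcgf6, Yaf2, Cdk1, Ccnb1 and Mcm2 were added after their values were seen. Kmt2a, Kmt2b and Men1 were named only to show what their list held. Figures were drawn with matplotlib 3.10.9 in Python 3.11.15.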

Additional observations from a re-analysis of the deposited data

How the results depend on the processing

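Kdm6b passed as lower in TKO under every alternative run, and Kdm6a under all but removal of the length and GC trend (-0.19, with or without the replicate block). Calls in TKO ran from 3938 to 5723 genes when 1 library was left out, and the members called from 2 to 3. Ezh2 in TKO ran from -0.46 to -0.23 over the same fits, and passed only without TKO replicate 3. The replicate block, whose numbers do not pair WT and TKO, left Ezh2 at -0.33 (adjusted p = 0.135) and 5101 genes called.

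Where values of members were near 0 their sign was not stable. In TKO, library-size scaling turned Eed to 0.034, Suz12 to 0.021, Jarid2 to 0.075 and Phf19 to 0.035. Median centring turned Mtf2 to -0.015. Removing the length and GC trend, with or without the block, turned Suz12 to 0.10, Jarid2 to 0.10, Aebp2 to 0.052 and Epop to -0.019. Leaving out 1 library gave -0.12 to 0.011 for Jarid2, -0.048 to 0.13 for Mtf2 and -0.17 to 0.080 for Phf19. The cause was not tested.

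In Dox against CTL, DESeq2 called 99 genes, the replicate block 265 and the block with the trend removed 846. Paired fits without 1 replicate number, chosen after seeing the data, called 134, 1534 and 591 genes (without replicates 1, 2 and 3) and up to 2 members (Eed and Mtf2, without replicate 2). Leaving out 1 library moved Ezh2 from -0.26 to 0.060 and Phf19 from -0.050 to 0.42. The paired fits turned Ezh2 to 0.014 without replicate 2 and Mtf2 to -0.0047 without replicate 3. The block changed no other call of a member. Depth limits Phf19 most, at 95 reads in 1 Dox library.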
